A study of Mus musculus with 11 samples.

Results

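*Malat1*, *Neat1*, *Meg3* and *Kcnq1ot1* are long noncoding RNAs that stay in the nucleus. They were chosen by symbol, as nuclear RNAs held to be abundant, and are 4 of the 27179 gene rows counted. Abundance was the ground for the choice, so the levels below describe these RNAs and are not findings about them. All libraries came from endothelial cells with high CD31 and high endomucin (EMCN), sorted by flow cytometry from the marrow of BALB/c mice, with blood cells gated out by CD45 and Ter-119. In healthy bone these markers define the vessels near the growth plate, and the sorted cells are named here by their markers alone. The control group (2 libraries, each from its own pool of healthy mice) was age-matched to mice burdened with bone metastases of 4T1.2, an RFP-expressing BALB/c mammary carcinoma line. Burdened bones were microdissected by RFP fluorescence, and endothelial cells were sorted from tumour-infiltrated marrow (met, 3 libraries) and from adjacent marrow free of tumour (non-met, 6 libraries). Burdened mice made up 4 pools. Non-met 1 and 5 came from pool 1, non-met 2, non-met 6 and met 1 from pool 2, non-met 3 with met 2 from pool 3, and non-met 4 with met 3 from pool 4. Libraries are therefore not separate animals, and p-values measure the spread between these libraries.

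*Malat1* is a single-exon RNA of nuclear speckles, the bodies where splicing factors gather. *Neat1* is the scaffold of paraspeckles, bodies built on its long form by proteins such as Nono and Sfpq. *Meg3* and *Kcnq1ot1* are imprinted, *Meg3* being expressed from the maternal copy of the Dlk1-Dio3 cluster, and *Kcnq1ot1* from the paternal copy of the Kcnq1 cluster, where it silences neighbouring genes in cis. *Malat1* and *Neat1* are widely expressed, endothelium included, whereas *Meg3* is best known from the pituitary and from mesenchymal tissues.

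On GRCm38, the build of mm10, *Malat1* (Entrez 72289) lies at chr19:5795690-5802672 and *Neat1* (Entrez 66961) at chr19:5824708-5845480, both on the minus strand. The files counted 6982 bases of *Malat1*, nearly its whole span of 6983, but 3177 bases of *Neat1*, whose span is 20773. This length is close to that of the short form (3004 bases in GENCODE), so reads over most of the long form (20771 bases) do not enter the *Neat1* count. *Meg3* (Entrez 17263) lies at chr12:109540996-109571729 on the plus strand, with 12906 bases counted. *Kcnq1ot1* (Entrez 63830) lies at chr7:143213111-143296547 on the minus strand, all 83437 bases counted as 1 unspliced transcript. It lies inside *Kcnq1*, which runs the opposite way, and 121 of the 4093 exon bases of *Kcnq1* in GENCODE fall within it. Whether counting used strand is not given in the sources used here, and the library kit does not mark strand, so *Kcnq1* precursor RNA and *Kcnq1ot1* cannot be told apart within this interval.

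The libraries were made with a low-input kit that primes cDNA synthesis with oligo-dT, so the 3′ ends are shown. In *Malat1* and in the long form of *Neat1*, a U-rich motif and an A-rich tract near the 3′ end fold into a triple helix that stands in for a poly(A) tail. The sequences were read from the GENCODE transcripts on the RNA strand and written as DNA, 5′ to 3′, with the motif GTTTTGCTTTT and the A-rich tract in capitals. That of *Malat1* is chr19:5795919-5796078 and that of *Neat1* is chr19:5824708-5824807.
Malat1: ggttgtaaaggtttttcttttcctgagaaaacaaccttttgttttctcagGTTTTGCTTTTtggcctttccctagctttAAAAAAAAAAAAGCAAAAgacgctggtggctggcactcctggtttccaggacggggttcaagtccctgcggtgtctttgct
Neat1, long form: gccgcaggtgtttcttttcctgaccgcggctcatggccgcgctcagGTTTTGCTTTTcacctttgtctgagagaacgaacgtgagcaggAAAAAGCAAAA
The motif GTTTTGCTTTT was found in 0.251% of the 141767 GENCODE transcripts and AAAAAGCAAAA in 0.436%, searched on the transcript strand. Only 2 transcripts held the first followed by the second within 100 bases, and they were those of *Malat1* and *Neat1*. The motifs were taken from these 2 sequences, as the last 11 bases of the long form of *Neat1* and the last 11 of the longest stretch that both ends share.

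The polyadenylation signal AATAAA occurs in the last 40 bases of the annotated *Malat1* transcript, beyond the triple helix region, and not in those of the long form of *Neat1*. It is shown in capitals in the last 40 bases of the short form of *Neat1* (chr19:5842307-5842346), of the *Meg3* transcript Meg3-207 (chr12:109571682-109571721) and of *Kcnq1ot1* (chr7:143203458-143203497). The GENCODE end of *Kcnq1ot1* lies beyond the interval counted in the files, which stops at 143213111. Of all GENCODE transcripts, 25.8% held AATAAA in their last 40 bases.
Neat1, short form: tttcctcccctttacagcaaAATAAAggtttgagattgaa
Meg3: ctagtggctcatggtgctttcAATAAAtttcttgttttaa
Kcnq1ot1: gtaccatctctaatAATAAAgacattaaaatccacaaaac
Runs of A inside a transcript can also be primed by oligo-dT. A run of at least 10 A occurred in 7.18% of transcripts. *Malat1* held 1 such run, of 12 bases, which begins 310 bases before its annotated end and is the tract in capitals above. The *Neat1* forms and Meg3-207 held none. *Kcnq1ot1* held 10, the longest of which, 41 bases and in capitals below, lies at chr7:143226925-143227005 with its flanks.
Kcnq1ot1, run of A: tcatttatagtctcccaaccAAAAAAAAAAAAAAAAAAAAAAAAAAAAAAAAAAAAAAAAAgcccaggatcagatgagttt
The counts are 1 number per gene, so where on a transcript its reads lie was not measured.

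Total counts ran from 733342 (non-met 4) to 19539761 (control 1), and 3 reads, taken as the floor, correspond to 0.147 to 5.43 CPM (counts scaled to a common library size, with TMM factors). In a sorted cell population, fewer cells of a type and less RNA per cell cannot be told apart. The 16 endothelial markers fixed for the check, among them *Pecam1*, *Emcn* and *Cdh5*, summed to between 10803 and 16027 CPM in control, 11976 and 19877 in non-met and 18207 and 20472 in met. Of these, 14 had a fold change above 0 between met and non-met. There edgeR called none, where it called 0.142% of all genes (2 at an unadjusted p under 0.05, as were 8.38% of all genes tested). limma-trend called none, DESeq2 1 and voomLmFit 5, where they called 0.0167%, 3.23% and 0.418% of the genes they tested. The epithelial keratins *Krt8*, *Krt18* and *Krt19* summed to between 0.782 and 4.93 CPM in the controls and non-met 1 and 2, and to between 9.75 and 83.5 CPM in the other 7 libraries. They belong to a list of 15 mammary epithelial and tumour markers, which as a whole did not part the libraries in this way. Its sums were 17.5 to 65.2 CPM in the controls and non-met 1 and 2, and 32.5 to 179 CPM in the other 7. The libraries were uneven, as 79.96% of the 11949 genes tested had 3 or fewer reads in at least 1 of the 11 libraries. Rows left out of the fit (unnamed, predicted and ribosomal RNA rows) held 2.91% to 3.46% of the counts in met, 1.94% to 2.87% in control and 3.38% to 15.7% in non-met libraries.

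Among the 1520 annotated long noncoding RNAs kept, *Malat1* had the highest mean level, both in CPM (998) and per kilobase of counted length (RPKM, 143). The next in CPM was *Xist*, the RNA that coats the inactive X chromosome, with 834. This order came from the non-met libraries, where *Malat1* averaged 1459 CPM and *Xist* 810.3, since *Xist* was the higher in control (1058 against 527) and in met (732 against 390). By reads, *Malat1* came first among these RNAs in non-met 1, 3, 4 and 5 and in no other library. By RPKM it came first in non-met 1 only, with ranks elsewhere from 2 (non-met 4) to 21 (met 3). *Neat1* ranked 3 in CPM (243) and 4 in RPKM (76.5), with a mean of 355 CPM in non-met, 132 in met and 75.5 in control. By reads it ranked 3 in each non-met library but non-met 3 (68), against 9 and 18 in control and 4, 6 and 97 in met. *Kcnq1ot1* ranked 18 in CPM (40.8) but 394 per length (0.490 RPKM), and *Meg3* ranked 112 in CPM (8.03) and 369 per length (0.622 RPKM). *Malat1* and *Neat1* had over 3 reads in all 11 libraries, *Kcnq1ot1* in 7 and *Meg3* in 2. *Meg3* entered the fit through those 2 libraries.

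**Figure D1:**
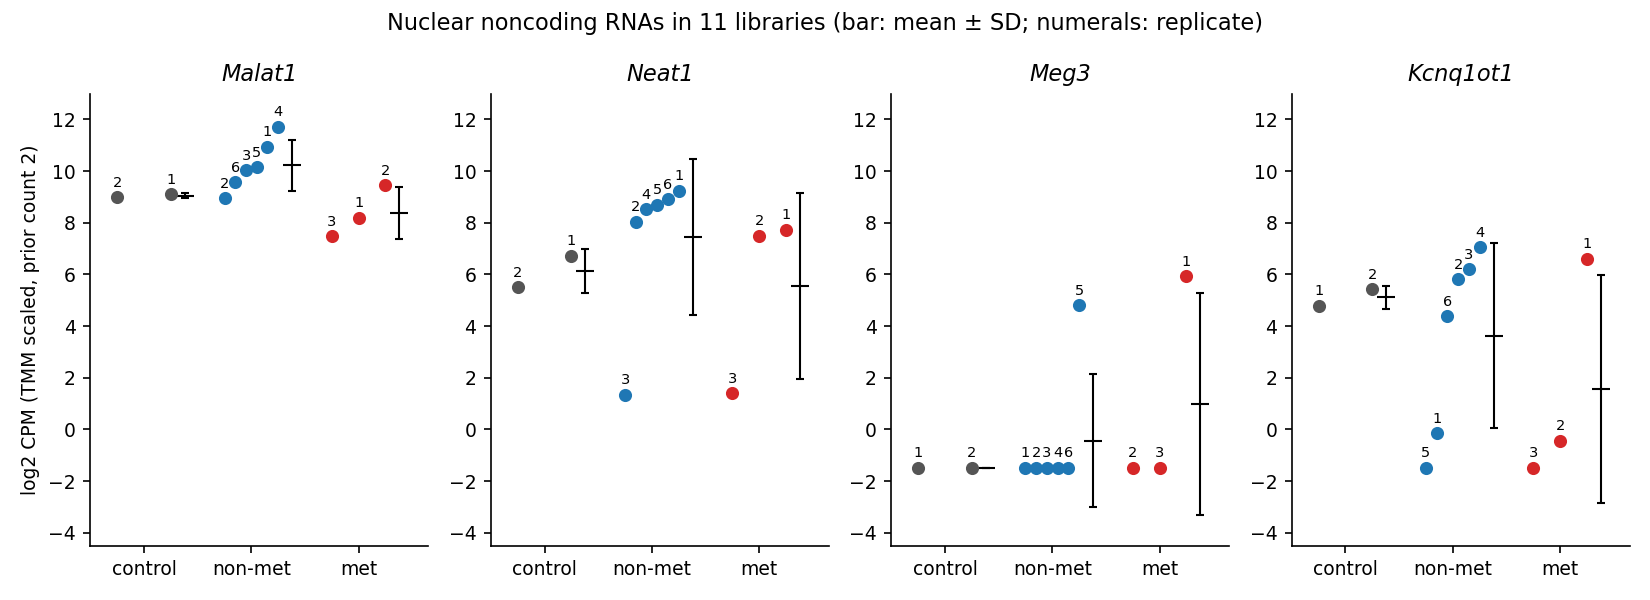
Level of each RNA in each library as log2 CPM (TMM scaled, prior count 2), by group, with points spread sideways in order of value, numerals giving the replicate, and the bar the mean ± SD. *Malat1* is present in every library, *Neat1* is near the bottom in non-met 3 and met 3, *Meg3* is at the value of 0 reads in 9 of 11 libraries, and *Kcnq1ot1* splits within the burdened groups.

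*Malat1* was lower in endothelium from tumour-infiltrated marrow than in endothelium from the adjacent marrow. The met libraries had 292, 699 and 178 CPM (met 1, 2 and 3). The non-met libraries ran from 489.8 CPM (non-met 2) over a median of 1089 to 3376 (non-met 4), and the controls had 550.0 and 503 CPM. Non-met 4 and non-met 1 (1955 CPM) were the highest of all libraries and met 3 the lowest, and the groups overlapped, since met 2 lay above non-met 2. In the edgeR quasi-likelihood fit of all 11 libraries, *Malat1* fell 3.74-fold, a log2 fold change of -1.90 ± 0.44 (SE; Benjamini-Hochberg adjusted p = 0.0312, n = 3 met and 6 non-met). It was the only one of the 4 members called in this comparison, in which 0.142% of all genes tested were called (17 genes, 14 of them lower in met, or 0.117%). Of these calls 17.6% were higher in met, against 66.0% of the 50 calls of voomLmFit, the study's own test. In an exact permutation test (two-sided, over libraries), the difference of mean log2 CPM of -1.85 had p = 0.0476, where 84 splits allow no p below 0.0119. With libraries of one pool and group summed, the difference was -2.04 and its exact p 0.0857.

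The direction of the *Malat1* difference held in all 28 alternative fits, with log2 fold changes from -2.63 to -1.14, whereas the call held in 16 of them, and adjusted p ran from 0.00108 to 0.751. The study's own test, voomLmFit with sample weights, gave -1.43 ± 0.87 and an adjusted p of 0.751, limma-trend gave -1.85 and 0.317, and DESeq2 gave -2.10 and 0.00502. These tests called 0.418%, 0.0167% and 3.23% of the genes they tested. With the mouse pool as a fixed replicate block, the edgeR fit gave -1.74 (adjusted p = 0.0848). The edgeR call was lost without met 1 (adjusted p = 0.671), met 3 (0.438), non-met 1 (0.152) or non-met 4 (0.576). Within the 7 libraries of higher keratin transcripts it gave -2.05 (adjusted p = 0.468), and with a term for these 2 sets of libraries -2.02 (adjusted p = 0.0390). Without non-met 1 and non-met 4 together, the 2 highest libraries, it fell to -1.14 ± 0.48 (adjusted p = 0.604).

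**Figure D2:**
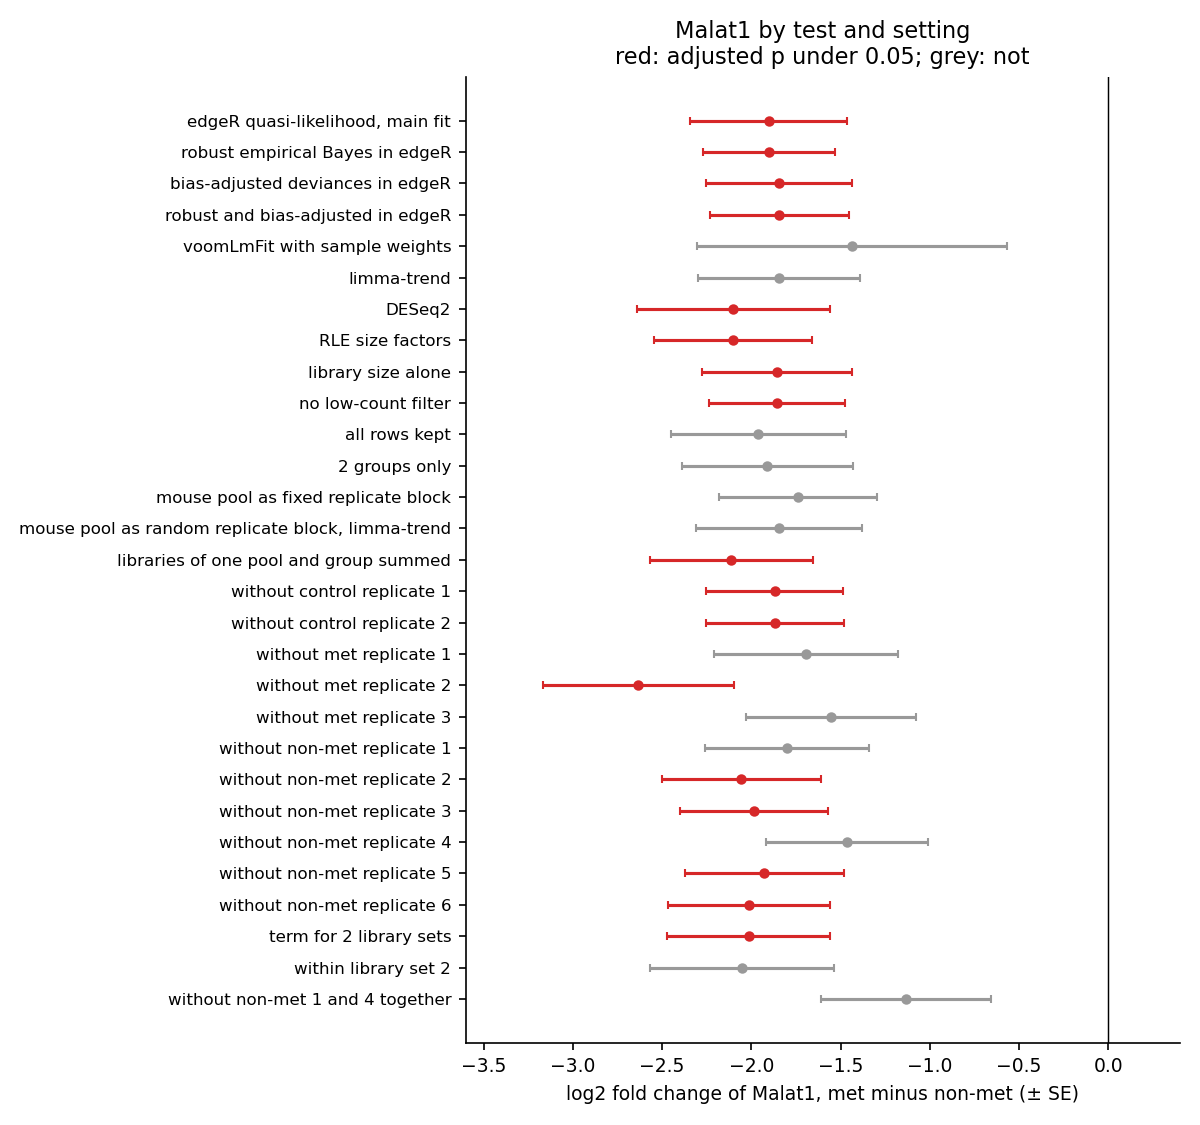
Fitted log2 fold change of *Malat1* between met and non-met (± SE) under each test and setting, with red marking an adjusted p under 0.05. Each point lies below 0, from -2.63 to -1.14, while 12 of the 28 alternatives did not call the gene.

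Within pools, the met library held less *Malat1* than every non-met library of the same mice in 3 of 3 pools, a pattern shared by 5.67% of all genes tested. In pool 2, met 1 had 292 CPM against 489.8 and 754 in non-met 2 and 6. In pool 3 the values were 699 CPM (met 2) and 1039.6 (non-met 3), and in pool 4 they were 178 (met 3) and 3376 (non-met 4). The log2 differences of -1.05, -0.57 and -4.24 were thus uneven, with pool 4 the widest. *Neat1* did not follow the same order. Its differences were -0.74 in pool 2, 6.16 in pool 3 and -7.12 in pool 4.

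**Figure D3:**
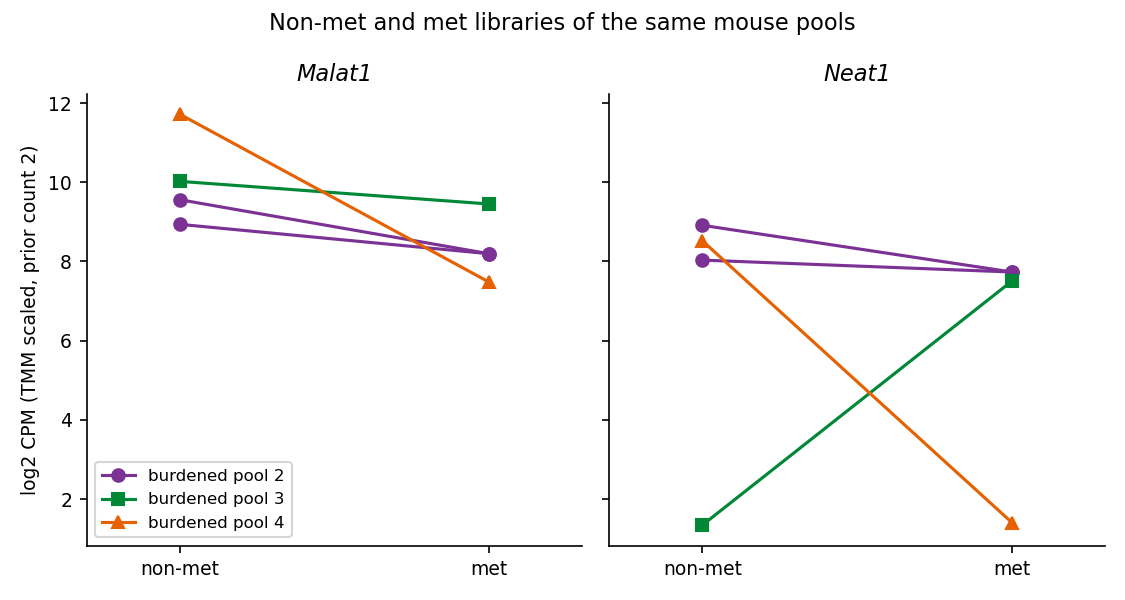
Log2 CPM (TMM scaled, prior count 2) of *Malat1* and *Neat1* in the non-met and met libraries of the 3 burdened pools that gave both, with lines joining each non-met library to the met library of its pool. All *Malat1* lines go down towards met, and those of *Neat1* cross.

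Other measures of the libraries also differed between met and non-met, though not all in the order of *Malat1*, and their part in its difference was not tested. Non-met 1 and non-met 4, the highest in *Malat1*, also had the largest shares of counts in left-out rows (15.7% and 14.0%). Mitochondrial transcripts took 7.09% to 19.8% of the kept counts in non-met and 4.17% to 9.41% in met. *Rn7sk*, the 7SK RNA made by RNA polymerase III and not an mRNA-like transcript, was at 0 reads in the 3 met libraries, in non-met 2 and in control 2, and at 128 to 340 CPM in the other 5 non-met libraries. It was the single gene called among 24 tested RNAs of the list of other long noncoding RNAs (edgeR, adjusted p = 0.000152, where 0.142% of all genes were called). In this list voomLmFit and limma-trend called 0 of 24 genes, and DESeq2 called 3, where they called 0.418%, 0.0167% and 3.23% of the genes they tested. Summed immediate early genes, such as *Fos* and *Junb*, which respond to cell handling among other stimuli, ran from 4003 to 6951 CPM in met and from 7875 to 10662 in non-met, and were at 11577 and 13385 in the controls. All 10 had a fold change below 0 between met and non-met, as had 53.2% of all genes, with a median of -0.91 on the log2 scale. Of the 10, edgeR called 0 (5 at an unadjusted p under 0.05, beside 8.38% of all genes). limma-trend called 0, voomLmFit 3 and DESeq2 4, where they called 0.0167%, 0.418% and 3.23% of the genes they tested. Granulocyte markers also differed between the groups, although the sort gated out CD45+ cells. The 16 markers summed to between 95.5 and 207 CPM in met, 180 and 359 in control and 403 and 5257 in non-met, with medians of 150 and 2827 CPM in met and non-met, and 13 of the 14 tested had a fold change below 0. The edgeR fit called *S100a8*, *S100a9*, *Ngp* and *Retnlg* lower, with adjusted p from 7.29e-05 to 0.0436, where 0.142% of all genes were called. In contrast, voomLmFit called 0 of the 14, limma-trend 1 and DESeq2 9, beside 0.418%, 0.0167% and 3.23% of the genes they tested. Among the non-met libraries, in falling order of *Malat1* (non-met 4, 1, 5, 3, 6 and 2), the granulocyte sums were 718, 3835, 3368, 403, 5257 and 2287 CPM. In met 1, 2 and 3, 11, 11 and 8 of the 16 markers were at 0 reads.

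**Figure D4:**
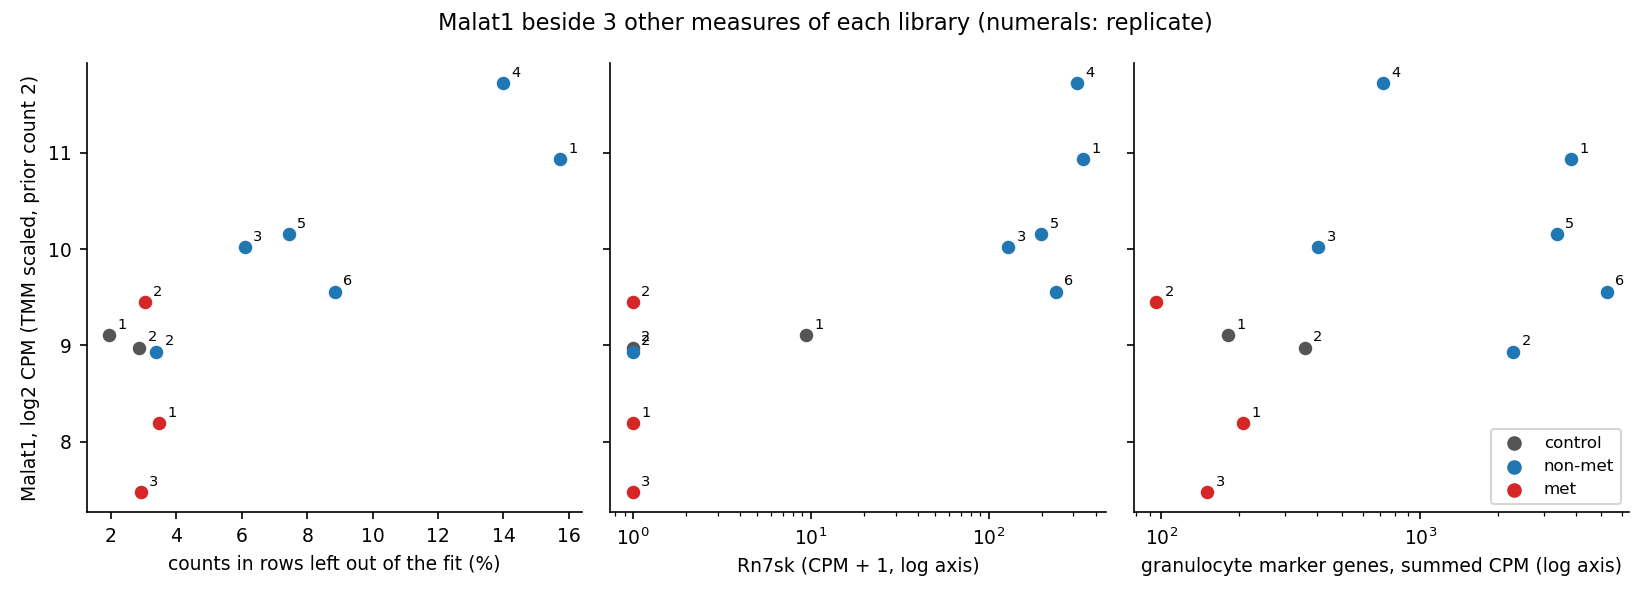
*Malat1* (log2 CPM) in each library against the share of counts in left-out rows (%), *Rn7sk* (CPM + 1, log axis) and the summed CPM of 16 granulocyte markers (log axis), with numerals giving the replicate. Non-met 1 and 4 stand highest in *Malat1* and furthest right in the first panel, at 15.7% and 14.0%, and the met libraries lie at the left of each panel.

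Against the controls, *Malat1* gave no call in either comparison. Met had a log2 fold change of -0.43 ± 0.51 (edgeR, adjusted p = 1), and the 503 and 550.0 CPM of the controls lay inside the range of the met libraries. Non-met had 1.47 ± 0.51 (edgeR, adjusted p = 0.648), with 5 of 6 libraries above both controls and non-met 2 below both. These comparisons share libraries with each other and with that of met and non-met. No member was called against the controls by edgeR, voomLmFit, limma-trend or DESeq2, which called 0.0837%, 1.2%, 0.0753% and 2.26% of the genes they tested in met and 0.117%, 0.636%, 0.067% and 2.63% in non-met. DESeq2 gave a p for 10100 of the 11949 genes and none for *Meg3*, so its shares are of those 10100. At an unadjusted p under 0.05, edgeR had 0 members in met, where 4.62% of all genes passed, and 2 (*Malat1* and *Neat1*) in non-met, where 4.31% did. As a share of all reads in long noncoding RNAs, *Malat1* took 10.1% to 12.2% in control, 7.65% to 33.6% in non-met and 5.44% to 14.6% in met libraries.

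*Neat1* was present at moderate levels in most libraries and nearly absent from 2. It had 212, 181 and 2.29 CPM in met 1, 2 and 3, and 106 and 45.3 CPM in the controls. In non-met it ran from 2.18 CPM (non-met 3) over a median of 391 to 600.3 (non-met 1). Non-met 3 and met 3 held 7 and 20 reads of *Neat1* beside 3342 and 1551 reads of *Malat1*. These 2 libraries came from different pools. The remaining 5 non-met libraries had 262 CPM and above, while the non-met group as a whole overlapped both met and control.

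The fitted log2 fold change of *Neat1* was -1.43 ± 0.82 between met and non-met (edgeR, adjusted p = 0.658) and 2.23 ± 1.02 between non-met and control (edgeR, adjusted p = 0.944). Between met and control it was 0.80 ± 1.01 (edgeR, adjusted p = 1), and this sign turned under voomLmFit (-1.60) and limma-trend (-0.57). None passed the threshold. By exact permutation the difference between met and non-met of -1.91 log2 CPM had p = 0.452, and without met 3 it was 0.16 with p = 1. Without non-met 3, the library seen to be low in these same values, it was -3.13, where the exact p of 0.0179 is the smallest its splits allow. Between non-met and control the difference was 1.336 with an exact p of 0.643, and 2.56 without non-met 3, where the exact p of 0.0476 is again the smallest its splits allow. In each of these comparisons, 10 of the 11 runs with a single library left out were not past 0.05. Among genes with a mean of at least 100 CPM, 95.3% had a smaller SD over the 11 libraries than *Neat1* (2.83 log2 CPM), against 60.98% for *Malat1* (1.19). Per length, reads of *Malat1* over those of *Neat1* ranged from 0.627 (met 1) to 217 (non-met 3).

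Of the 18 paraspeckle proteins listed, 17 were tested, and none was called in any of the 3 comparisons by edgeR, voomLmFit, limma-trend or DESeq2. At an unadjusted p under 0.05, edgeR had 0 in each comparison, where 8.38%, 4.62% and 4.31% of all genes passed. Between met and non-met their fold changes had a median log2 value of -0.15, beside -0.10 over all genes, with 12 below 0, where 53.2% of all genes were. *Sfpq*, which with *Nono* is needed to build the body, ran from 139 to 646 CPM over the 11 libraries and had 309 and 407 CPM in non-met 3 and met 3. *Nono* had its 2 lowest values in these same libraries, 58.2 and 81.7 CPM, and 103 to 493 in the rest. *Tardbp*, which encodes the RNA-binding protein TDP-43, had 42.0 and 20.9 CPM in them and 152 to 255 in the rest. These genes were singled out after their values were seen.

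Proteins of nuclear speckles and splicing (26 tested, among them *Srsf1*, *Son* and *Srrm2*) and of RNA 3′ end processing and stability (15 of 18 tested, among them subunits of RNase P, which cleaves the *Malat1* end, and *Mettl16*, which binds its triple helix) gave no call by edgeR in any comparison, and none at an unadjusted p under 0.05. DESeq2, voomLmFit and limma-trend called none either. Their median log2 fold changes between met and non-met were -0.26 and 0.32, beside -0.10 over all genes. The 16 tested neighbours of *Malat1* and *Neat1* on chromosome 19 were split, 8 with a fold change below 0 and 8 above, with a median of 0.00, and none was called by these 4 tests or had an unadjusted edgeR p under 0.05. *Frmd8* gave 0.73 ± 1.41 and *Sipa1*, an inhibitor of Rap signalling, -0.14 ± 0.59. Among the 175 other annotated long noncoding RNAs tested, edgeR called none between met and non-met and 38 had an unadjusted p under 0.05, where 8.38% of all genes did. DESeq2 called 8 of them, where it called 3.23% of all genes it tested, and voomLmFit and limma-trend called none. At an unadjusted p under 0.05, voomLmFit had 6 of the 175, limma-trend 4 and DESeq2 29, without shares over all genes given here. In the edgeR fit these RNAs lay below 0 in 106 of 175 cases, where 53.2% of all genes did, with a median of -0.78 beside -0.10. *Xist*, similar to *Malat1* in CPM, gave -0.15 ± 0.41 (edgeR, adjusted p = 1).

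*Meg3* was found in 2 libraries only, met 1 with 138 reads (60.8 CPM) and non-met 5 with 52 reads (27.6 CPM). All others had 0 reads, the controls included, which allows at most 0.147 and 0.531 CPM there by counting error alone. No fold against the controls is given, since both were at 0. Between met and non-met the fitted log2 fold change of 2.13 ± 2.98 (edgeR, adjusted p = 1) rests on 1 library in each group. The 2 libraries came from different pools, and the other libraries of those pools had none. Of all genes tested, 9.40% had 9 or more libraries at 3 reads or fewer.

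The libraries with *Meg3* had the highest summed CPM of their groups in markers of stromal and perivascular cells, whose part in its level was not tested. By the number of markers found, met 1 was the lowest of its group. Of the 22 stromal, osteolineage and perivascular markers, 15 exceeded 3 reads in non-met 5 and 11 in met 1. The first count was the top of the non-met range (8 to 15), shared with non-met 6, and the second the bottom of the met range (11 to 15). At 0 reads were 6 markers in non-met 5 and 8 in met 1, the most in met. The marker sums were 5400 CPM in non-met 5 and 3753 in met 1, the highest of the non-met and of the met libraries, where the ranges were 1798 to 5400 and 949 to 3753. The controls, without *Meg3*, had 4666 and 12035 CPM, of which *Cxcl12* made up 3224 and 8720. It was also 48.2% of the sum in non-met 5 and 48.0% in met 1. Without *Cxcl12* the sums were 2797 CPM in non-met 5, 1952 in met 1, and 1442 and 3315 in the controls, so control 2 stood above both. The 2 libraries differed in which markers were high. Non-met 5 had the top values of *Dcn* (184.5), *Lum* (162), *Postn* (203), *Ibsp* (298) and *Alpl* (216 CPM), genes of fibroblasts and bone-forming cells, and of *Pdgfrb* (318 CPM), a mural cell marker, held 1.06 CPM of *Acta2* and was at 0 for *Col3a1*, *Sp7* and *Prrx1*. Met 1 had the top values of *Acta2* (320.2), *Cspg4* (174) and *Col3a1* (478 CPM), the first 2 of which mark mural cells, held 116 CPM of *Pdgfrb* and 141 of *Rgs5* (142 in non-met 2), and was at 0 for *Dcn*, *Lum*, *Ibsp* and *Alpl*. These markers were singled out after their values were seen. *Dlk1*, the paternally expressed gene at the start of the *Meg3* cluster, was at 86.9 CPM in non-met 5 and at 0 reads in the other 10 libraries, met 1 included. *Rian*, another maternal RNA of the cluster, was at 0 in both libraries with *Meg3* and reached 18.7 CPM in non-met 2, and *Mirg* was at 0 throughout.

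*Kcnq1ot1* was either present or nearly absent from library to library. The controls had 27.2 and 42.8 CPM. In met, met 1 had 97.3 CPM (221 reads) while met 2 and met 3 had 2 and 0 reads. In non-met, non-met 4, 3, 2 and 6 had 132, 72.8, 55.7 and 20.4 CPM, and non-met 1 and 5 had 3 and 0 reads. The 2 libraries nearly without it in non-met were both those of pool 1. High and low libraries were found in both burdened groups, and the groups overlapped. Fitted log2 fold changes were -0.53 ± 1.94 between met and non-met, -0.11 ± 2.44 between met and control and 0.42 ± 2.24 between non-met and control (edgeR, adjusted p = 1 each), and the sign of each turned when single libraries were left out or, for the last, under voomLmFit (-0.99) and limma-trend (-1.48). Of genes in its level band, 91.0% had a smaller SD than *Kcnq1ot1* (3.45 log2 CPM).

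The *Kcnq1* cluster did not move as a block beside it. *Kcnq1*, a potassium channel gene, had 0 reads in control 2 and met 1, where *Kcnq1ot1* had 242 and 221 reads, and had 153 reads in non-met 5, where *Kcnq1ot1* had none. *Cdkn1c*, a cell cycle inhibitor that *Kcnq1ot1* is known to silence on the paternal copy, ranged from 0 reads in met 1 to 523 CPM in non-met 4, the met and non-met libraries with the most *Kcnq1ot1*. *Phlda2*, likewise imprinted, was at 0.115 CPM or less throughout. Of the 17 listed genes of the cluster, 11 were tested and none was called in any comparison by edgeR, voomLmFit, limma-trend or DESeq2. At an unadjusted p under 0.05, edgeR had 2 between met and non-met, 2 between met and control and 0 between non-met and control, where 8.38%, 4.62% and 4.31% of all genes passed. Their median, met against non-met, was -0.40 on the log2 scale, beside -0.10 over all genes.

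**Figure D5:**
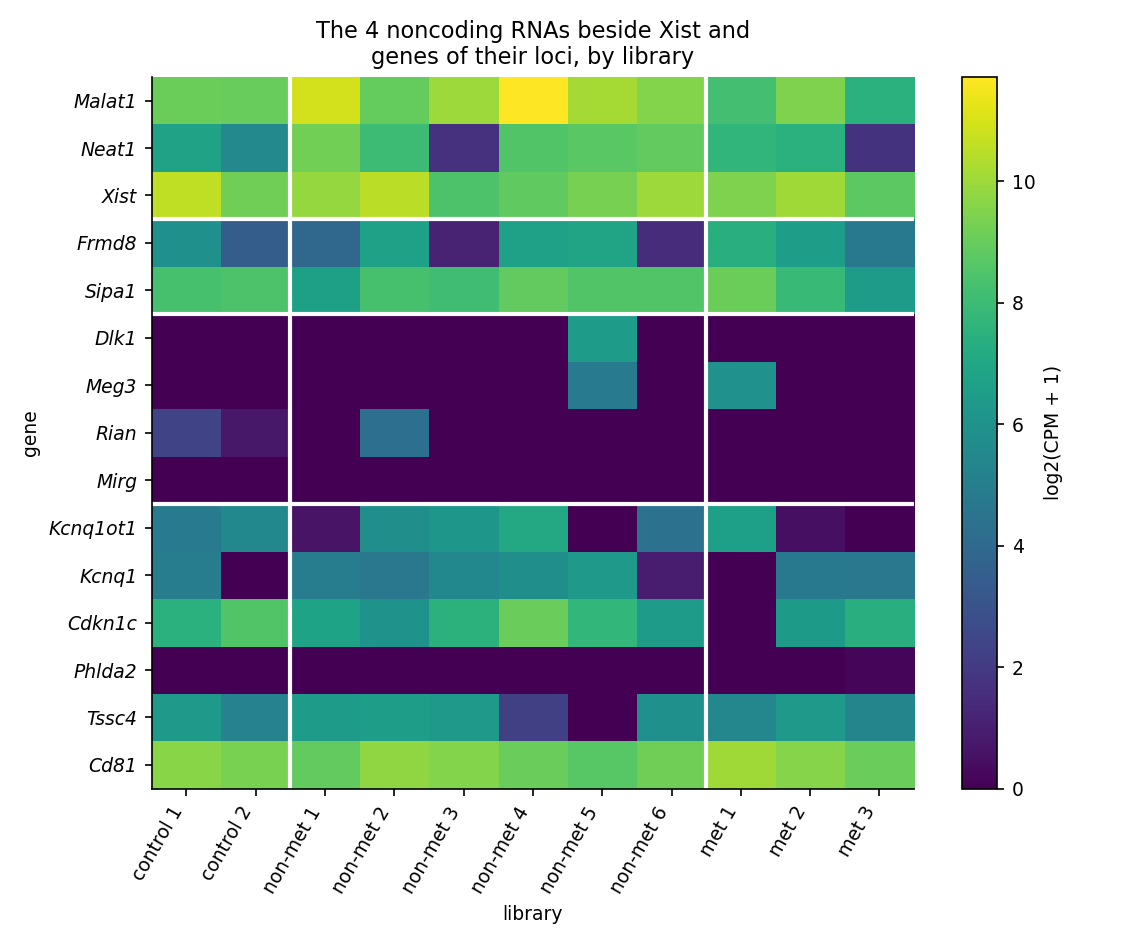
Heat map of log2(CPM + 1) in each library for *Malat1*, *Neat1* and *Xist*, 2 neighbours of *Malat1* and *Neat1* on chromosome 19, genes of the *Meg3* cluster and genes of the *Kcnq1ot1* cluster, white lines parting groups and loci. *Meg3* and *Dlk1* coincide in non-met 5 only, and *Kcnq1* is at 0 in control 2 and met 1 where *Kcnq1ot1* is present.

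The genes most like each RNA were taken by Pearson correlation of log2 CPM over the 11 libraries, among 9523 genes with a mean of at least 10 CPM, as a description. The points share depth and group. For *Malat1* they were *Sorl1* (0.83), *Rn7sk* (0.80) and *Ctbp2* (0.79), and for *Neat1* they were *Ikbkb* (0.94), *Kmt5c* (0.90) and *Fam102a* (0.89). For *Meg3* they were *Morn2*, *Vnn3* and *Tpm2* (1.00, 0.97 and 0.96), each resting on few libraries, and for *Kcnq1ot1* they were *Hnrnpul1* (0.85), *Ulk2* (0.85) and *Rhobtb2* (0.83). In their lowest libraries, *Sorl1*, *Rn7sk* and *Rhobtb2* were also at 0 CPM, and *Kmt5c* and *Ulk2* at 0.115 and 0.229 CPM. *Ctbp2*, *Ikbkb*, *Fam102a* and *Hnrnpul1* stayed at 8.95 CPM or more. Between the 4 RNAs themselves, r was 0.46 for *Malat1* and *Neat1* and between -0.17 and 0.26 for the other pairs.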

How the data were processed

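Reads of 11 libraries, made with a SMART-Seq low-input kit, were aligned by the authors to mm10 with Rsubread, and featureCounts gave 1 value per Entrez gene. The deposited values are unnormalised read counts, and the 11 single-library tables equal the series table. RefSeq (GRCm38.p6) named 25275 of 27179 rows and GENCODE 18 more. Unnamed rows (1886), predicted rows (1794) and ribosomal RNA rows (35) were left out and 23464 remained. filterByExpr left 11949 genes (minimum count 10, minimum total 15).

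The main test was the quasi-likelihood test of edgeR 4.0.16 at its default settings (TMM, 3 groups, all 11 libraries), with Benjamini-Hochberg adjustment over all genes tested and a threshold of 0.05. It differs from the study's voomLmFit, which is given beside it. The robust form of the edgeR test was run first and was replaced by the default form, since the design names no robust option. That change was made after its results were seen. Single values were tested by exact permutation of libraries, on log2 CPM with a prior count of 2. limma 3.58.1 and DESeq2 1.42.0 served as alternatives. The code was tested on simulated data. The 4 RNAs and the gene lists were chosen with earlier results of these data known. The rule for named genes took the members, the 3 genes most like each, and from each list up to 3 genes in each direction called by edgeR in the comparison described. Other genes named were singled out after their values were seen, and some listed genes are not reported here. Intervals and floors (3 reads) cover counting error only.

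Mouse pools were taken from the labels, so met and non-met libraries of a pool share animals. The Spearman correlations of same-pool deviations from the group means were -0.009, -0.026 and 0.004 across genes.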

Additional observations from a re-analysis of the deposited data

Results flagged for a closer look

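In non-met 3, *Neat1* lay far below the other 5 non-met libraries. Its gap to the nearest of them was 0.8483 of the range of the group in log2 CPM, over the critical value of 0.625 for 6 samples. For *Meg3*, non-met 5 stood apart at the top, with a gap of 1 of the range, which follows from the other 5 libraries being at 0 reads, so that the test says nothing of it. The non-met group is the only one large enough for the test, which was run on 4 RNAs, and chance marks about 1 in 20 groups of continuous values.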

How the results depend on the processing

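*Malat1* was lower in met than in non-met in all 28 alternative fits. Its call held in 16, among them robust estimation (-1.90, adjusted p = 0.00121), which was the form run first. Added after the data were seen, bias-adjusted deviances (-1.84, 0.00604) and these with robust estimation (-1.84, 0.00372) also kept the call. It was lost under voomLmFit (-1.43), limma-trend (-1.85), all rows kept (-1.96), 2 groups only (-1.91), the mouse pool as fixed replicate block (-1.74) or as random replicate block in limma-trend (-1.84), within the 7 libraries of higher keratin transcripts (-2.05) and without non-met 1 and 4 together (-1.14), the last 2 also added later. The cause was not tested. With single libraries left out it ran from -2.63 to -1.46. Its difference of mean log2 CPM ran from -2.38 to -1.40, and was past 0.05 by exact permutation in 4 of 11, and was -2.04 with libraries of a pool and group summed, where the exact p was 0.0857.

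*Neat1* turned sign between met and control under voomLmFit (-1.60), limma-trend (-0.57) and the random block (-0.64). With single libraries left out, its difference of mean log2 CPM ran from -3.13 to 0.16 between met and non-met, -1.64 to 1.497 between met and control, and 0.72 to 2.56 between non-met and control. *Kcnq1ot1* turned sign between non-met and control under voomLmFit (-0.99), limma-trend (-1.48), the random block (-1.48), a term for the 2 library sets told apart by keratin transcripts (-0.31) and within the set with fewer (-0.32). Leaving out single libraries moved it from -7.82 to 0.12 between met and non-met, -7.43 to 0.48 between met and control and -0.23 to 0.75 between non-met and control. The mean of *Malat1* in controls was 527 CPM, 585 by library size alone and 571 with all rows kept.

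Genes called between met and non-met numbered 17, and 27 with bias-adjusted deviances, 50 under voomLmFit, 2 under limma-trend with or without the random block, 326 under DESeq2, 10 with all rows, 6 with 2 groups only, 7 with the fixed block or the set term, 3 within the larger set and 2 without non-met 1 and 4. Between met and control they numbered 10, and 16 with robust estimation or library size alone, 33 with bias-adjusted deviances, 29 with both, 143 under voomLmFit, 228 under DESeq2, 20 without the filter, 4 with all rows, 0 with 2 groups only and 5 with the set term. Between non-met and control they numbered 14, and 37 with bias-adjusted deviances, 38 with both, 76 under voomLmFit, 8 under limma-trend with or without the random block, 266 under DESeq2, 24 without the filter, 0 within the smaller set and 5 without non-met 1 and 4. Leaving out single libraries gave 6 to 24, 6 to 16 and 9 to 21. RLE size factors moved the median log2 fold change of all genes between met and non-met from -0.10 to -0.26. They moved the share of calls that were higher in met from 17.6% to 5.26%, and library size alone moved that of met over control from 70.0% to 43.8%.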
